A study of Homo sapiens with 47 samples.

Results

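The snRNA pseudogene copies are annotated genomic copies of the small nuclear RNAs (snRNAs) of the spliceosome and of histone pre-mRNA processing. They were selected on raw counts: a gene of biotype snRNA with a symbol that starts with RNU and ends in P, other than RNU2-2P, was taken when at least 10 reads were counted in at least 3 of the 6 libraries. The rule kept 218 of 1777 annotated copies, in a table of 58395 genes. Of the other copies, 912 had a count in at least 1 library and 647 had a count in none of the 6. The study asked how Mediator, through its contact with the EAF1 subunit of an elongation complex, affects RNA polymerase II at histone and snRNA genes. RNA-seq after depletion of ribosomal RNA was done on HEK293T cells, an established human embryonic kidney line, in 3 wild-type (WT) and 3 EAF1-mutant (EAF1mut) libraries. EAF1-mutant cells carry alanine substitutions in the Mediator-binding residues of EAF1, made with CRISPR, and are 1 line. Line-specific differences therefore cannot be told apart from effects of the mutation, and p-values measure the spread between libraries. The paper describes the replicates of its experiments in general as biological, and the labels of these libraries name no cultures. Total counts ranged from 52541541 to 66611451 a library.

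snRNA genes have compact promoters of their own. U1, U2, U4, U5, U7, U11 and U12 are made by RNA polymerase II and U6 by RNA polymerase III, from a promoter with a TATA box upstream of the gene. Most pseudogene copies arose when snRNA transcripts were copied back into the genome, so they usually lack that promoter, and many lie inside introns of other genes, whose transcripts then contain them.

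EAF1 itself was read at 57.4, 58.3 and 56.4 counts scaled by library size (CPM) in WT and 19.6, 17.9 and 18.7 in EAF1mut libraries. The gene was lower by a log2 fold change of -1.61 ± 0.05 (SE; edgeR adjusted p = 2.46e-18). EAF1 lies on the short arm of chromosome 3 (3p), which is described with the copies of that arm. Gene counts do not show the substitutions.

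The copies differ in how close they stay to the parent. RNU1-27P and RNU1-28P are intergenic, lie 9349 bases apart and match all 164 bases of the parent gene RNU1-1. RNU6-33P, in an intron of HERC3 on the other strand, matches 99.1% of the bases of RNU6-1, RNU6-377P 79.4%, and RNU5A-8P, in an intron of HHAT on the other strand, 84.5% of those of RNU5A-1. Sequences of copies with the largest fall and the largest rise are given in GRCh38, 5′ to 3′. RNU6-1242P (chr18:39678520-39678622, minus strand), in an intron, matches 55.1% of the parent bases and does not hold ACAGAGA, the U6 box that pairs with 5′ splice sites.
RNU6-1242P: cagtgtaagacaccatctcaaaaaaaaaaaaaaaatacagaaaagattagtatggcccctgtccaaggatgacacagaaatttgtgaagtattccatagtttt
RNU7-26P (chr6:27897504-27897566, minus strand), an intergenic copy, keeps CTCTTT (in capitals), the letters with which U7 pairs with histone pre-mRNA, and differs from RNU7-1 (chr12:6943816-6943878, plus strand) at 11 of 63 bases.
RNU7-1: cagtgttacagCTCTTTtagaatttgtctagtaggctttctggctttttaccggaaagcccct
RNU7-26P: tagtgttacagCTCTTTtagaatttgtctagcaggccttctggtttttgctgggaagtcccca

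Of the 218 copies, 155 derive from U6, 17 from U7, 13 from U2, 11 from U4, 9 from U1, 5 from U5 and 8 from the minor-spliceosome snRNAs (2 U11, 3 U4atac and 3 U6atac; the 1 annotated U12 copy did not pass). The share that passed was 12.2% for U6 (of 1271 annotated), 11.5% for U7 (148), 18.8% for U2 (69), 12.5% for U4 (88), 8.04% for U1 (112), 19.2% for U5 (26) and 12.7% for the minor group (63). Copies ranged from 60 to 230 bases with a median of 107. Identity to the parent had a median of 82.2% among copies that passed and 81.3% among all annotated copies. The letters ACAGAGA were in 53.5% of the U6 copies that passed and in 54% of all annotated U6 copies, and ACTTACC, the letters of U1 that pair with 5′ splice sites, was in 5 of 9 U1 copies that passed and in 34.8% of all 112. GTAGTA, the branch-site pairing letters of U2, was in 9 of 13 copies that passed and 49.3% of all 69, CTCTTT in 10 of 17 U7 copies and 62.2% of all 148, and ATTTTTG, Sm-site letters, in 3 of 11 U4 copies and 39.8% of all 88. A match is a description of the letters on the strand of the copy.

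Introns held 168 of the copies that passed, 25 overlapped an exon of another gene and 25 were intergenic. These were 17.3% of 972 annotated intronic copies, 29.4% of 85 exonic copies and 3.47% of 720 intergenic copies. Among intronic copies, the share that passed followed the level of the host gene, the gene whose intron holds the copy. It was 1.15% of 260 copies in hosts under 1 CPM, 4.49% of 156 in hosts of 1 to 10 CPM, 24.5% of 449 in hosts of 10 to 100 CPM and 44.9% of 107 in hosts over 100 CPM. The median WT level of the host was 71.7 CPM for the 168 copies that passed and 8.59 CPM for the other 804.

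The share by orientation went both ways. In hosts over 100 CPM, 18 of 48 copies on the strand of the host and 30 of 59 on the opposite strand passed, and in hosts of 10 to 100 CPM 68 of 241 and 42 of 208 did. The library kit keeps strand, but no source states whether the counting used it, so reads of an antisense copy and its host cannot be told apart. Per kilobase of its own length, the median intronic copy stood at 2.56 CPM in WT cells and the median host at 9.96 CPM per kilobase of exon (151 pairs in which both were tested). The copy had a median of 24.6% of the level of its host per length (quartiles 13.9% and 45.9%) and exceeded it in 18 pairs. Across these 151 genes, which share the same 6 libraries, levels of copy and host had a Spearman rho of 0.11. The count rule sets a floor on the level of these copies, so level, ratio and rho describe copies that passed. Levels were divided by annotated length, with no correction for reads that only partly overlap a short copy, so the ratio is approximate. Over all 449 annotated copies in hosts of 10 to 100 CPM, the median copy stood at 0.086 CPM, not scaled by length.

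**Figure D1:**
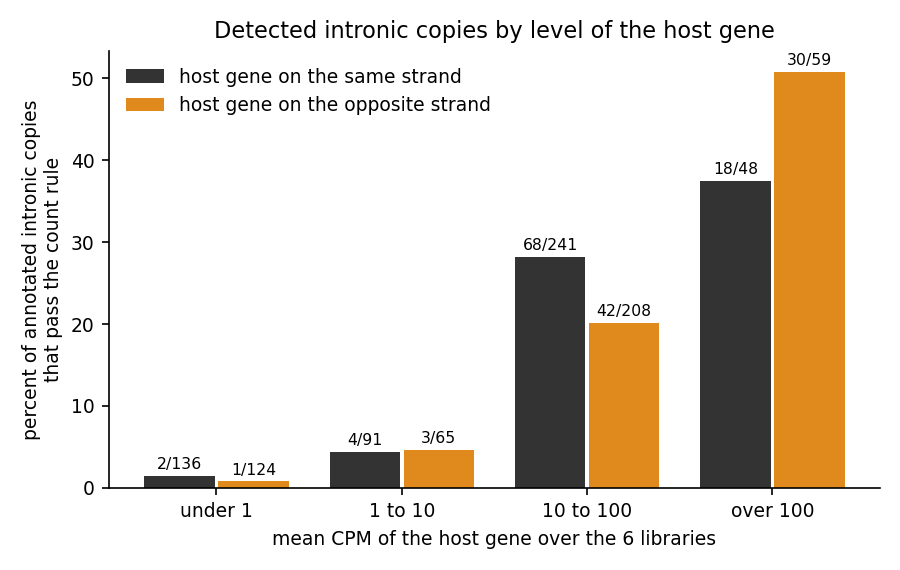
Share of annotated intronic copies that passed the count rule (y axis, percent), by mean CPM of the host gene over the 6 libraries (x axis) and by strand of the host; numbers over bars are copies that passed over annotated copies. Bars rise from 2 of 136 and 1 of 124 under 1 CPM to 18 of 48 and 30 of 59 over 100 CPM.

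All 6 copies identical to the parent over its whole length passed (RNU1-27P, RNU1-28P, RNU6-3P, RNU6-4P, RNU6-5P and RNU6-6P), as did 2 of 9 copies at 99% to under 100% (RNU6-33P and RNU6-36P, at 99.1%), against 10.4% of 804 copies under 80%. Reads from such copies and from the parent gene or other copies share their sequence, and no source states how the counting treated reads with several positions, so the levels of these 8 copies are uncertain. RNU6-1 had 1.68 ± 0.28 CPM in WT (SD, n = 3), RNU6-5P 1.62 ± 0.22, RNU6-3P 1.69 ± 0.19, RNU6-6P 1.30 ± 0.43 and RNU6-4P, whose libraries lay under those of RNU6-1, 0.98 ± 0.02. RNU6-1 has TATA in the window 20 to 35 bases upstream, and RNU6-5P and RNU6-33P do not in theirs. The 50 upstream bases of RNU6-1 and RNU6-5P, with TATA in capitals, show how copy and parent part outside the gene.
RNU6-1 upstream (chr15:67840046-67840095, minus strand): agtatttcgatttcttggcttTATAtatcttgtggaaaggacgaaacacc
RNU6-5P upstream (chr2:174558073-174558122, minus strand): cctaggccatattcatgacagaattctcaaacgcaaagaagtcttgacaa
Over all U6 copies, TATA was in that window in 8.81% of 1271 annotated copies and 11.6% of the 155 that passed, with 0 of 15 intergenic copies that passed against 42 of 510 annotated intergenic copies.

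RNU1-27P alone held 44.5% of the summed CPM of the 218 copies. Its counts were 4833, 4077 and 3629 in WT and 3896, 3848 and 5175 in EAF1mut libraries, and the groups overlapped. The log2 fold change was -0.16 ± 0.06 (edgeR adjusted p = 0.0343). It was -0.10 without WT replicate 1, -0.27 without WT replicate 3 and -0.04 with library totals. In DESeq2 it was -0.17 (DESeq2 adjusted p = 0.268). RNU1-28P, with the same sequence and the same 50 upstream bases (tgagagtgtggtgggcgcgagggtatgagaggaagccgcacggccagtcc, chr14:34556390-34556439, minus strand), was counted 282, 238 and 238 times in WT and 172, 179 and 164 times in EAF1mut libraries. All EAF1mut values lay under all WT values, at 4.71 ± 0.27 and 2.83 ± 0.43 CPM (SD, n = 3), and the fold change was -0.75 ± 0.11 (edgeR adjusted p = 4.93e-06). SNX6, a sorting nexin gene 4704 bases away on the strand of RNU1-28P, changed by -0.78 ± 0.04 (adjusted p = 7.27e-14). Among other neighbours within 20000 bases, EAPP and RPS19P3, on the same strand, changed by -0.37 ± 0.05 and -0.31 ± 0.30. ENSG00000259002 and ENSG00000279423 changed by -0.81 ± 0.25 and -0.72 ± 0.06. The nearest, ENSG00000259135 at 385 bases on the other strand, changed by -0.78 ± 0.25. These genes were named after their values were seen, and their part in the fall was not tested.

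The next copies by level lie in exons of well-expressed genes and did not pass the threshold, an adjusted p under 0.01 with a log2 fold change beyond 0.5. RNU4-5P, in an exon of the aminopeptidase gene XPNPEP1, had 4.88 ± 0.09 CPM in WT and 5.57 ± 0.56 in EAF1mut cells, a fold change of 0.19 ± 0.09 beside 0.19 ± 0.04 for XPNPEP1. RNU6-395P, in an exon of the RNA polymerase II subunit gene POLR2D, changed by 0.16 ± 0.10 beside 0.17 ± 0.05 for POLR2D. RNU6-1330P, in an exon of the ribosome biogenesis gene NSA2, changed by -0.05 ± 0.13 beside -0.04 ± 0.04 for NSA2. RNU4ATAC18P, the highest of the minor group, was intergenic, 5045 bases from WTAP, and changed by 0.17 ± 0.25. In the 3 exonic pairs copy and gene differed by under 0.02. RNU4-5P and RNU6-395P lie opposite to the strand of their gene, and RNU6-1330P lies on the strand of NSA2. The reads of an exonic copy cannot be told apart from those of the exon, on opposite strands because no source states whether the counting used strand.

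Most copies were counted few times: the median copy had a mean of 14.7 reads and 9 had a mean over 100. The count rule was met in all 6 libraries by 105 copies, in all 3 WT and 0 EAF1mut libraries by 8, and in 0 WT and all 3 EAF1mut libraries by 6. The last 14 had to differ between the groups, and their differences are a description. Just inside the rule stood RNU6-198P, counted 5, 2 and 3 times in WT and 11, 12 and 10 in EAF1mut libraries, and RNU6-290P, counted 4, 12 and 10 times in WT and 2, 4 and 13 in EAF1mut libraries. Just outside stood RNU6-1053P, with 16, 9 and 8 in WT and 8, 8 and 16 in EAF1mut libraries, and RNU6-879P, with 14, 15 and 9 in WT and 8, 9 and 9 in EAF1mut libraries. At this edge the choice rests on 1 read: the third highest count was 10 in 30 copies that passed and 9 in 36 that did not.

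A test of EAF1mut against WT was possible for 202 of the 218 copies, and 16 fell to the filter on low counts. 12 copies were lower past the threshold (5.94% of those tested; 9.36% of all 28025 genes tested) and 5 were higher (2.48%; 11% of all genes). Of these, 4 lower copies and 1 higher copy met the count rule only in the group where they are high, so the rule itself placed them in these counts. The number of higher copies was 2 in DESeq2, 1 without WT replicate 3 and 2 without EAF1mut replicate 2. Among 3898 genes whose mean count lay between the quartiles of the copies, 3.67% were lower and 8.67% higher. The median log2 fold change of the copies was -0.05, with quartiles of -0.37 and 0.19, and that of all genes was 0.01. With library totals in place of TMM scaling the median of all genes moved to 0.13 and that of the copies to 0.06, so the copies stood -0.06 from all genes under both, and the split became 11 lower and 8 higher. The libraries of the groups did not overlap in 46 copies, 22.8% of those tested, beside 57.3% of all genes. Summed CPM of the 218 copies was 182, 174 and 158 in WT and 158, 158 and 163 in EAF1mut libraries. Without RNU1-27P the means were 93.5 ± 3.04 and 89.7 ± 2.28 (SD, n = 3).

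**Figure D2:**
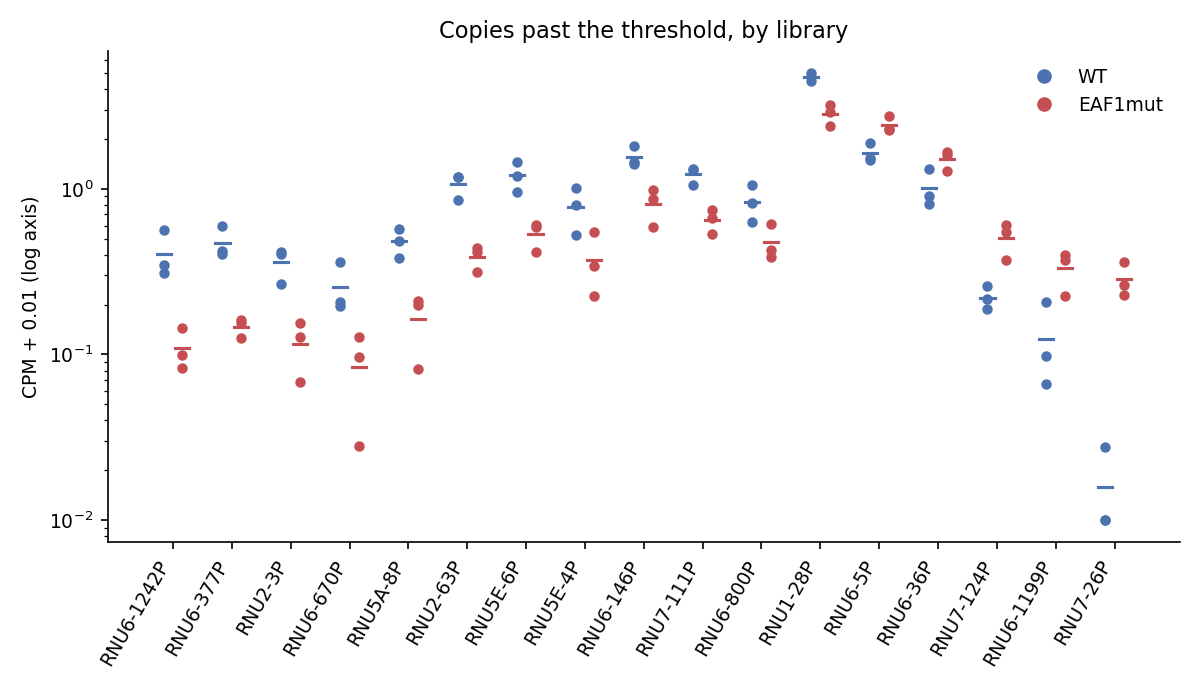
CPM plus 0.01 on a log axis for the 17 copies past the threshold, 1 point a library, WT and EAF1mut side by side, with bars at the mean of each group. 12 copies were lower and 5 higher in EAF1mut cells, and RNU7-26P was near 0 in WT.

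RNU7-26P had the largest rise. It was counted 1, 0 and 0 times in WT and 21, 14 and 15 times in EAF1mut libraries, so it entered through the EAF1mut libraries. Summed over libraries the ratio was 43.6, with an exact 95% counting interval of 7.47 to 1756. The copy was selected on these same counts, so ratio and interval describe them and test nothing. The copy lies 3613 bases beyond the 3′ end of the histone gene H2BC17 and on the opposite strand. H2BC17 was read at 198 ± 11.2 CPM in WT and 105 ± 2.41 in EAF1mut cells (SD, n = 3), a fold change of -0.92 ± 0.04. H2AC17 and H3C12, histone genes next to H2BC17, changed by -1.02 ± 0.04 each. OR2B2, an olfactory receptor gene 13619 bases from the copy on its far side from the histone genes, went from 0.06 ± 0.01 to 0.55 ± 0.22 CPM (3.12 ± 0.43; edgeR adjusted p = 1.62e-06). The neighbours within 20000 bases with a mean of at least 10 reads thus moved both ways, and they were looked up after the rise of the copy was seen.

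The other rises were smaller. RNU6-1199P, intergenic by the position rule but within a transcribed pseudogene, was counted 5, 10 and 3 times in WT and 23, 12 and 25 times in EAF1mut libraries (1.51 ± 0.43; edgeR adjusted p = 0.00457). Among its WT libraries only replicate 2 reached 10 reads. Its selection thus rests largely on the EAF1mut libraries, where it is high, and its p-value does not account for that. RNU7-124P, in an intron of an unnamed protein-coding gene, was counted 14, 9 and 11 times in WT and 32, 33 and 25 in EAF1mut libraries (1.21 ± 0.31; adjusted p = 0.00235). RNU6-5P was counted 106, 77 and 79 times in WT and 135, 153 and 157 in EAF1mut libraries (0.57 ± 0.14; adjusted p = 0.00134). In all 3 the groups did not overlap. Each call was lost when some single libraries were left out: for RNU6-5P without WT replicate 3 (0.49) or EAF1mut replicate 2 (0.48), for RNU7-124P without WT replicate 2 (1.10) or 3 (1.17) or EAF1mut replicate 1 (1.14) or 2 (1.07), and for RNU6-1199P without WT replicate 1 (1.35) or 3 (1.18) or EAF1mut replicate 1 (1.37) or 3 (1.41). RNU6-36P, an intergenic copy, was counted 74, 45 and 43 times in WT and 76, 89 and 115 in EAF1mut libraries, with overlap in CPM (0.59 ± 0.18; edgeR adjusted p = 0.00894), and this call was lost without WT replicate 2 or 3 or EAF1mut replicate 2 or 3. The parent RNU6-1, which shares its sequence with RNU6-5P, changed by 0.29 ± 0.18 (adjusted p = 0.187).

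The largest falls were of intronic copies. RNU6-1242P, in the long noncoding RNA gene MIR924HG, was counted 19, 28 and 16 times in WT and 8, 5 and 5 in EAF1mut libraries (-1.98 ± 0.40), and MIR924HG changed by -0.96 ± 0.08. RNU6-377P, an intronic copy on the short arm of chromosome 3, was counted 33, 20 and 22 times in WT and 9, 8 and 8 in EAF1mut libraries (-1.76 ± 0.34). RNU6-670P, in the DNA repair gene FANCD2, was counted 20, 10 and 10 times in WT and 7, 1 and 6 in EAF1mut libraries (-1.68 ± 0.50), and FANCD2 changed by -1.78 ± 0.04. RNU2-3P, in a noncoding gene under 0.1 CPM, was counted 23, 13 and 21 times in WT and 7, 8 and 4 in EAF1mut libraries (-1.75 ± 0.40). These 4 copies met the count rule in WT libraries alone, so their lower counts in EAF1mut cells are a description. The call of RNU6-670P was lost without WT replicate 1 (-1.33), EAF1mut replicate 2 (-1.28) or EAF1mut replicate 3 (-1.81).

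RNU6-377P and FANCD2 with RNU6-670P lie on 3p, the arm of EAF1. All 8 copies of that arm had a fold change under 0 (median -0.82), but 3 of them (RNU6-670P, RNU6-377P and RNU2-64P) met the count rule in WT libraries alone and had to be lower, and all 7 of their hosts with a pair were lower in value as well, among them GBE1 (-0.24 ± 0.05, with its copy RNU2-28P at -0.39 ± 0.41). Of the 731 genes tested on 3p, 469 were lower past the threshold (64.2%; median -0.78), against 7.9% of the other 27294 genes (median 0.02). Whether the dose of the arm differed between the lines was not tested, and the part of the arm in these falls cannot be told apart from that of the mutation. The comparison with the arm was made after the values were seen.

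U5 and U2 copies had the lowest medians. The 5 U5 copies had a median of -1.09, with 3 of 5 past the threshold. RNU5E-6P, an exonic copy, was counted 82, 60 and 51 times in WT and 24, 33 and 40 in EAF1mut libraries, with no overlap (-1.19 ± 0.21; edgeR adjusted p = 5.26e-05). RNU5A-8P was counted 32, 24 and 20 times in WT and 12, 4 and 13 in EAF1mut libraries, with no overlap (-1.58 ± 0.35; adjusted p = 0.000561). RNU5E-4P, an intergenic copy counted 57, 26 and 42 times in WT and 32, 12 and 23 in EAF1mut libraries, with overlap, changed by -1.09 ± 0.29 (adjusted p = 0.00332), a call that was lost in DESeq2 and without WT replicate 1 or EAF1mut replicate 2 or 3, and RNU5A-4P and RNU5E-10P did not pass (-0.42 and 0.01). The 13 U2 copies had a median of -0.39 and 2 passed, but RNU2-3P, 1 of the 2, and RNU2-64P met the count rule in WT libraries alone and had to be lower, and the median value is that of RNU2-28P on 3p. RNU2-63P, an intergenic copy, was counted 66, 43 and 63 times in WT and 24, 24 and 21 in EAF1mut libraries, with no overlap (-1.50 ± 0.22; adjusted p = 5.01e-06). Medians of the other groups were -0.02 for U6 (142 tested), -0.21 for U7 (16), -0.25 for U4 (10), 0.11 for U1 (9) and 0.17 for the minor group (7). With library totals the U6 median turned to 0.09, and the others kept their sign. By position, the median was -0.06 for intronic copies (152 tested, 6 lower and 2 higher), which turned to 0.06 with library totals. It was 0.05 for exonic copies (25 tested, 3 lower and 0 higher) and 0.17 with library totals. For intergenic copies (25 tested, 3 lower and 3 higher) it was -0.12, near 0 with library totals (-0.00456), and -0.144 to -0.0284 with single libraries left out.

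**Figure D3:**
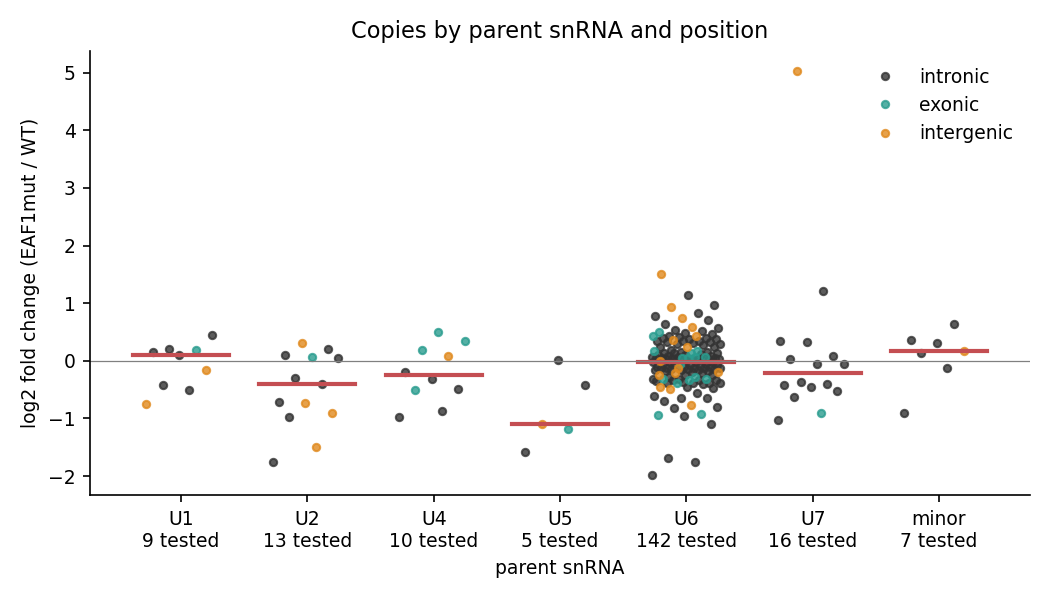
log2 fold change of EAF1mut against WT (y axis) for the 202 tested copies by parent snRNA, coloured by position, with a bar at the median of each parent. The 5 U5 copies have a median of -1.09 and the 142 U6 copies of -0.02.

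The genes of the parent snRNAs were listed beside the copies. Of 22 parent genes tested, 9 were lower past the threshold and 1 was higher, with a median of -0.44 that stayed under 0 with library totals (-0.33). RNU11 and RNU12 of the minor spliceosome changed by -1.22 ± 0.12 and -1.13 ± 0.11, RNU4ATAC by -1.12 ± 0.23, RNU4-1 by -1.02 ± 0.09, RNU5A-1 by -1.47 ± 0.26 and RNU5B-1 by -1.31 ± 0.21. RNU1-1 changed by -0.27 ± 0.05, RNU7-1 by -0.40 ± 0.16 and RNU6ATAC by -0.19 ± 0.32, which are short of the threshold. RNU2-1 was under the filter on low counts, at 0.07 ± 0.04 CPM in WT. The 5 U5 parents and 4 of the 5 U5 copies had values under 0. RNU11, RNU12 and RNU4ATAC fell, and 0 of 7 tested minor copies passed. These were 2 U11, 2 U4atac and 3 U6atac copies. No U12 copy was tested, and the parent of the U6atac copies did not pass, so parents and copies are not matched sets. Of 10 factors that bind snRNA promoters, SNAPC4 passed (0.65 ± 0.04; edgeR adjusted p = 9.11e-12), a subunit of the complex that reads the proximal promoter element, and the others did not. That is 1 of 10 higher, beside 11% of all genes tested, and the median of the 10 was 0.0035.

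Intronic copies were set against their hosts in 151 pairs. Copy and host changed in the same direction in 106 pairs (70.2%; Wilson 95% interval 62.5% to 76.9%), beside 68.1% of all 4058 pairs of a tested gene inside an intron of a tested host, 73.1% of 156 pairs of Y RNA and 7SK copies and 69.4% of 134 pairs of snoRNA genes. Some copies among the 151 met the count rule in 1 group alone, which fixed their direction. Without these copies and without 3p, the share was 67.9% (95 of 140 pairs). By strand, over the 151 pairs, the share was 72.6% of 84 pairs on the same strand and 67.2% of 67 on opposite strands, a difference that was not tested. Across the 151 pairs, whose fold changes come from the same 6 libraries, Pearson's r was 0.59 and Spearman's rho 0.49. They were 0.54 and 0.51 for all 4058 pairs, 0.36 and 0.58 for Y RNA and 7SK copies and 0.43 and 0.56 for snoRNA genes. Outside 3p (144 pairs of the copies) they were 0.45 and 0.43. By strand, over the 151 pairs, they were 0.75 and 0.61 on the same strand and 0.19 and 0.31 on opposite strands. Without 3p and without copies that passed through 1 group, a choice made after the values were seen, they were 0.33 and 0.39 in 140 pairs. Of these, 76 pairs on the same strand had 0.52 and 0.49 and 64 on opposite strands 0.08 and 0.25. The difference between strands was not tested. In the 17 pairs whose host was lower past the threshold the copies had a median of -0.81 and the hosts of -0.71, and 15 of the 17 moved in the same direction. 5 of these copies met the count rule in WT libraries alone and had to be lower, and without them the medians were -0.61 and -0.62, with 10 of 12 in the same direction. In the 3 pairs whose host was higher the medians were -0.32 for copies and 0.55 for hosts, and 1 of the 3 moved in the same direction. In the 131 pairs whose host did not pass the medians were 0.01 and -0.05. Of the 8 intronic copies past the threshold, 7 had a tested host and 6 of the 7 changed in its direction, but 3 of the 6 (RNU6-1242P, RNU6-377P and RNU6-670P) met the count rule in WT libraries alone, which fixed their direction.

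**Figure D4:**
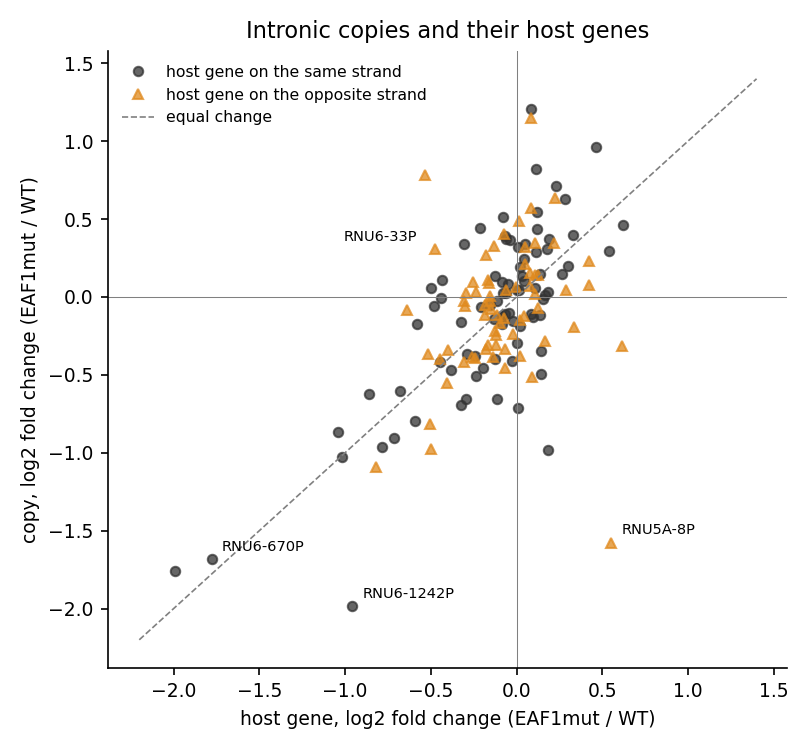
log2 fold change of EAF1mut against WT for the host gene (x axis) and the intronic copy (y axis) in 151 pairs, by strand, with a dashed line of equal change. RNU6-670P lies near that line with its host at -1.78, and RNU5A-8P lies far under it.

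A change of copy against host was tested as the difference of their log2 CPM in each library (limma, over all 4058 pairs). 2 of the 151 copies differed from the host past the threshold, 1.32% beside 3.97% of all pairs. RNU5A-8P fell against HHAT by 2.05 ± 0.35 (limma adjusted p = 0.000722). HHAT, which encodes the acyltransferase of Hedgehog proteins, was read at 4.96, 4.29 and 4.61 CPM in WT and 6.83, 7.19 and 6.38 in EAF1mut libraries, so the host was higher in every EAF1mut library while the copy was lower in each. RNU6-33P rose against HERC3, a ubiquitin ligase gene, by 0.78 ± 0.18 (limma adjusted p = 0.00946), a call that held without WT replicate 1 and was lost when any other single library was left out (differences of 0.61 to 0.86). HERC3 was read at 15.2, 17.6 and 18 CPM in WT and 11.9, 12 and 12.6 in EAF1mut libraries, while RNU6-33P itself was at 1.82, 1.76 and 1.38 CPM in WT and 1.78, 2.53 and 1.87 in EAF1mut libraries, with overlap. Both copies lie opposite to the strand of the host. RNU6-33P matches RNU6-1 at 99.1% of bases and is among the copies whose levels are uncertain, so its change against HERC3 is uncertain too. RNU6-33P changed by 0.31 ± 0.16 and RNU6-1 by 0.29 ± 0.18. Whether reads of other U6 genes were counted for RNU6-33P was not tested.

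NUP98 and ARPIN-AP3S2 each held 2 copies that passed. In the nucleoporin gene NUP98 (fold change -0.07 ± 0.03), RNU6-1143P changed by 0.39 ± 0.44 and RNU7-50P by -0.46 ± 0.47. In ARPIN-AP3S2, a readthrough gene of -0.30 ± 0.04, RNU7-111P overlaps an exon of ARPIN and lies opposite to the strand of the readthrough gene. RNU7-111P was counted 59, 65 and 70 times in WT and 39, 29 and 51 in EAF1mut libraries, with no overlap (-0.91 ± 0.19; edgeR adjusted p = 0.000318). RNU6-1111P was not tested, at 10, 19 and 8 counts in WT and 2, 9 and 11 in EAF1mut libraries. RNU6-146P, in an exon of the kinase gene PRKX, changed by -0.94 ± 0.19 (edgeR adjusted p = 0.000173) beside -0.96 ± 0.05 for PRKX. RNU6-800P, in an intron of the ubiquitin ligase gene MID1 on the other strand, was counted 35, 41 and 56 times in WT and 36, 21 and 29 in EAF1mut libraries (-0.81 ± 0.25; adjusted p = 0.00763) beside -0.50 ± 0.03 for MID1, and this call was lost without WT replicate 2 or 3 or EAF1mut replicate 2 or 3.

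Markers fixed for the cell type were counted in both lines, PAX2 at a lower level than the fibroblast marker COL1A1. VIM was read at 380 ± 8.97 CPM in WT and 199 ± 4.00 in EAF1mut cells, NEFL at 53.4 ± 1.75 and 48 ± 1.09, NEFM at 62.3 ± 5.38 and 25.1 ± 0.48, ENO2 at 6.49 ± 0.04 and 24.9 ± 0.87, LHX1 at 6.23 ± 0.16 and 5.52 ± 0.28, and PAX2 at 0.68 ± 0.18 and 0.87 ± 0.19. PTPRC was at 0.02 and 0.03 CPM, CD3E at 0.01 and 0, HBB at 0 and 0.005, ALB at 0.04 and 0.14, and COL1A1 was at 2.85 ± 0.58 and 4.15 ± 0.15. NEFM, VIM, ENO2 and the fibroblast marker COL1A1 (0.54 ± 0.12) changed past the threshold between the lines, and their part in the changes of the copies was not tested.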

How the data were processed

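The RNA-seq table holds raw read counts per Ensembl gene as deposited. The authors made the counts from paired-end reads of a stranded kit, demultiplexed with bcl2fastq 2.18, mapped to GRCh38 with HISAT2 2.3.4.1 and counted with Rsubread; for trimming the paper names Trim Galore and the record Trimmomatic 0.38. They tested with DESeq2 1.28.1 in R 4.0.2. No source states the strand or multi-mapping settings. Samples were matched by genotype and replicate in the column names. Of 58395 genes, 57754 were found in GENCODE version 44, which gave biotype, symbol, exons and hosts. A host is a protein-coding or long noncoding gene whose span holds the copy. Copies that overlap an exon of another gene were called exonic, the rest in hosts intronic. Members and lists were chosen with earlier results of these data known. Y RNA and 7SK copies were taken by symbols that carry P and a number, where the plan read ending in P.

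Counts were tested with edgeR 4.0.16 (quasi-likelihood, TMM, filterByExpr; 28025 genes; Benjamini-Hochberg) under R 4.3.3, with DESeq2 1.42.0 as an alternative. Copy against host was tested with limma 3.58.1 on log2 CPM with a prior count of 2. Scripts were tested on simulated counts. CPM uses TMM factors. Identity is matching bases of the best local alignment (Biopython 1.88) over the parent length. Named copies were the highest of each parent group and the 5 highest, up to 5 rises and 5 falls of greatest size among calls with non-overlapping libraries, up to 3 that fell and up to 3 that rose against the host past the threshold, the 3 of highest identity, the 2 on each side of the count rule, and copies of the 2 hosts holding most, with hosts and parents. RNU6-3P, RNU6-4P, RNU6-6P, RNU6-36P, RNU5E-4P, RNU5A-4P, RNU5E-10P, RNU2-28P, RNU2-64P, RNU6-146P, RNU6-800P and neighbouring genes fall outside that rule and were named after their values were seen. Other alternatives were other scalings, no filter, other thresholds and members, each library left out and the replicate number as a block. With 3 against 3 libraries an exact permutation test cannot go below 0.1, so none is given. The interval of RNU7-26P covers counting error only, and the Wilson interval treats pairs as independent.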

Additional observations from a re-analysis of the deposited data

How the results depend on the processing

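DESeq2 called 9 copies lower and 2 higher, and 11 of the 17 copies called by edgeR passed in both; the intronic median was -0.0387 over all 168 intronic copies, which it tested without the filter, and -0.0698 over the 152 intronic copies of the edgeR fit, so the added copies moved it toward 0. Library totals gave 8 copies higher and medians of 0.0646 (all), 0.0593 (intronic) and -0.00456 (intergenic), and moved the log2 ratio of summed CPM from -0.105 to 0.0108. With no filter on low counts the medians were -0.0224 (all) and -0.0290 (intronic). An adjusted p under 0.05 with no fold limit gave 22 lower and 10 higher. Copies with 10 or more reads in all 6 libraries gave 7 lower and 2 higher, with medians of -0.0673 (intronic) and -0.209 (intergenic). Where copy and host both passed, 80% of 5 pairs moved in the same direction, but in 3 of these 5 the count rule fixed the direction of the copy, and 1 of the other 2 moved with its host. Same-strand hosts left 0 copies that differed from the host, and a prior count of 0.5 left 1. Fewer copies were tested in the member and strand alternatives, and 218 with no filter. For the other changes the cause was not tested.

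With each library left out in turn, which changed the set tested to 208 to 214 copies, 9 to 13 copies were lower and 1 to 4 higher, 1 to 2 differed from the host, the shares in the direction of the host were 63.1% to 67.3%, and the medians were -0.0857 to -0.0324 (all), -0.0910 to -0.0319 (intronic) and -0.144 to -0.0284 (intergenic). The fewest higher copies, 1, came without WT replicate 3. Of the 17 copies past the threshold, 10 kept the call in all 11 alternative fits and 7 lost it in at least 1. Of the 10, 4 (RNU7-26P, RNU6-1242P, RNU6-377P and RNU2-3P) met the count rule only in the group where they are high, so their difference was set by the selection. RNU5E-4P lost it without WT replicate 1 (-0.85) or EAF1mut replicate 2 (-0.85) or 3 (-1.02), RNU6-36P without WT replicate 2 (0.50) or 3 (0.44) or EAF1mut replicate 2 (0.55) or 3 (0.51), and RNU6-800P without WT replicate 2 (-0.84) or 3 (-0.62) or EAF1mut replicate 2 (-0.70) or 3 (-0.73) and with library totals (-0.70). All of the 7 except RNU6-5P lost it in DESeq2. RNU5A-8P differed from HHAT whichever library was left out. RNU6-33P differed from HERC3 without WT replicate 1 and not without WT replicate 2 (0.80) or 3 (0.61) or EAF1mut replicate 1 (0.86), 2 (0.61) or 3 (0.86), nor with a prior count of 0.5 (0.78).

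With replicate number as a replicate block, 12 copies were lower and 5 higher, and the median was -0.0379. Same-numbered libraries did not deviate together (correlations of -0.00238, -0.104 and 0.0339), and pairing was not used.

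Alternatives chosen after seeing the data left 3 copies higher among those under 99% identity and a median of -0.0207 outside 3p. The low counts of most copies limit what could be detected: the median standard error of a log2 fold change was 0.35 for the copies and 0.10 for all genes.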
